A study of Schizosaccharomyces pombe with 36 samples.

Results

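A set of 208 windows of the fission yeast genome was examined, chosen by the high usage of Pol ε on both DNA strands together in strains without an active RTS1 barrier. Each window spans 3 kb, and the windows do not overlap. Members were the highest 5% of 4170 windows when Pol ε usage was averaged over both strands and over 4 barrier-off strain pairs. The 3 chromosomes held 4190 such windows. Of these, 20 were left out because they lie between 840 and 900 kb of chromosome 2, where the barrier construct sits, and 0 were left out by the minimum of 10 counts per strand in every library. The lowest count of a window on 1 strand in any library was 43.

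Polymerase usage sequencing (Pu-seq) marks the strand that a given polymerase copied by the ribonucleotides a mutant form of it incorporates, in cells whose RNase H2 does not remove them. The 36 libraries form 16 pairs of a Pol δ mutant strain and a Pol ε mutant strain, plus 4 Pol α libraries. The Pol δ strains carried cdc6-L591G (cdc6-L591M in 1 library of the inverted pair), the Pol ε strains cdc20-M630F and the Pol α strains pol1-L850F, all in an ade6-704 leu1-32 ura4-D18 background grown in YE medium at 30°C to log phase. Ribonucleotides persisted because rnh201 was deleted (rnh201-d) or carried the RED mutation (rnh201-RED). The 4 barrier-off pairs lacked rtf1, whose product activates RTS1, and the native RTS1, and carried RTS1 and the 10xrDNA barrier on chromosome 2, in rnh201-RED or rnh201-d, each with and without pku70. For the rnh201-d pair with pku70, the listed genotype names the insertion without the 10xrDNA barrier. These 8 libraries chose the windows. The other 12 pairs had no part in the choice. They comprise the same 4 backgrounds with rtf1+ (barrier-on), and rnh201-d strains with adh1-rtf1, with tandem RTS1, with TuraR at 4 insertion sites (ChrI3220, ChrI4740 and ChrI5234 on chromosome 1 and ChrII8535 on chromosome 2) and with 10xrDNA alone on chromosome 1 (ChrI array), and 1 rnh201-RED pair with nat:adh1-rtf1 and a second RTS1 in inverted position. Titles and listed genotypes of the inverted pair name opposite polymerases, and the titles were followed. TuraR is a construct that carries RTS1, and titles mark the barrier as on in the tandem and TuraR pairs. In the adh1-rtf1 strains the paper describes the barrier as active. Below, barrier-on names only the 4 pairs called so above. The ChrI4740 pair is listed as rtf1::nat, against its title, and so is the Pol ε strain of the ChrI array. Each strain gave 1 library here, so the spread between pairs is a spread between strains. The reporting summary mentions repeats of Pu-seq with other isolates, and the labels mark no library as such a repeat. The libraries held between 3304406 and 84420592 counts (median 13633601).

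In a canonical fork Pol ε extends the leading strand and Pol δ completes the lagging strand, after Pol α has primed it. A rightward fork therefore places Pol ε on the forward (f) strand and Pol δ on the reverse (r) strand, and a leftward fork does the opposite. Where forks part, at origins, Pol ε usage on f minus that on r rises from left to right, and where forks meet it falls. Under this scheme a change in fork direction moves usage on the 2 strands in opposite ways and leaves their mean in place. Usage here is the Pol ε count divided by its library total, over the sum of that value and the same value for Pol δ.

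The 300-base bins with the highest Pol ε usage in 4 of the highest members are printed to show what sequence the signal came from, limited to windows whose coordinates match the unmodified reference and to bins that are coding or in no annotated gene. They are reference sequence of the build ASM294v3, forward strand, with runs of 6 or more A or of 6 or more T in capitals.
chr2:36601-36900, in no annotated gene, in the window of ght7: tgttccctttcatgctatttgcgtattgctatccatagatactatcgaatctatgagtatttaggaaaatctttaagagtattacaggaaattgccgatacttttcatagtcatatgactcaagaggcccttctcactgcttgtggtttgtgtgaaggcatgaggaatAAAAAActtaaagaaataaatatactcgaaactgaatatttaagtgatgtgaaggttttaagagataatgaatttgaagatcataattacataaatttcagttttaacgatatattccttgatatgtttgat
chr1:627001-627300, within the coding sequence of spo15, minus strand gene: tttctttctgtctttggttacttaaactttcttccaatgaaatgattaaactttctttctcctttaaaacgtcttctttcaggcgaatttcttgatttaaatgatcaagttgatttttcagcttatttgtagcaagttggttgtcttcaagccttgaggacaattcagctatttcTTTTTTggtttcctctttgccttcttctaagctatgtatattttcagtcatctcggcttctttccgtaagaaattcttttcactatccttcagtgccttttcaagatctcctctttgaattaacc
chr1:11701-12000, in no annotated gene, subtelomeric: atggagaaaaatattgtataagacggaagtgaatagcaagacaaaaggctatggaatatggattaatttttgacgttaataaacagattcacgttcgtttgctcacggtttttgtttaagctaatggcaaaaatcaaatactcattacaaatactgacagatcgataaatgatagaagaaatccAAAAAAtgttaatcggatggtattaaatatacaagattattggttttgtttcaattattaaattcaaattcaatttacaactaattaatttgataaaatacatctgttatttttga
chr1:2685001-2685300, in no annotated gene, in the longest run of members: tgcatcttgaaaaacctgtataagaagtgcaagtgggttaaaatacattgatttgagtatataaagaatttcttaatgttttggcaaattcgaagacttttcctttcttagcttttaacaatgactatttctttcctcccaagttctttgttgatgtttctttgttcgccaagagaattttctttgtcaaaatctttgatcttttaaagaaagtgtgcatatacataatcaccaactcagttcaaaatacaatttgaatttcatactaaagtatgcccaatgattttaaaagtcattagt
Their Pol ε usage in the barrier-off pairs was 65.0%, 63.0%, 61.7% and 62.6%, and the median over the 12 other pairs was 59.1%, 58.2%, 57.3% and 58.9%. Their GC content was 30.7%, 33.7%, 26.3% and 29.3%, against a median of 36% over the 41905 bins of this length. Of the 4 bins, 3 hold 1 such run and the last holds 0. A run was present in 58.9% of the members' bins and 55.2% of all bins. Over whole windows the members' median GC content was 35.1%, against 36% for all windows, and the median number of such runs was 9 in both.

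The values that chose the members are given as a description. In the barrier-off pairs the members' Pol ε usage ran from 57.2% to 62.6% with a median of 58.1%, and all windows had a median of 51.7%, from 33.8% to 62.6%. The threshold fell in a dense part of the range. The last windows inside it were chr1:2004001-2007000 with cid16 and mtl1, chr2:3201001-3204000 with hsk1, which encodes the Dbf4-dependent kinase of origin firing, and cnd1, and chr1:3999001-4002000 with the retrotransposon Tf2-5, at 57.22%, 57.22% and 57.21%. The first outside were chr2:3147001-3150000 with ypt7, chr2:210001-213000 with atg38 and mef2, and chr2:4404001-4407000 with adn2, all at 57.21%. Windows on either side of the threshold differed by less than the spread between the pairs. Between any 2 barrier-off pairs, usage correlated across the 4170 windows with r between 0.527 and 0.804, as a description, since neighbouring windows are not independent.

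The members were also high in Pol ε in libraries that had no part in choosing them. Over the 12 other pairs the members' usage had a median of 57.0% (53.6% to 59.9%), against 50.7% for all windows. In each single pair the members' median lay above that of all windows, by 4.45 percentage points in the ChrII8535 pair up to 8.55 points in the barrier-on rnh201-d pair (mean 6.23 ± 1.23, SD, n = 12 pairs). Between 200 and 208 members lay above the median of all windows in a pair, and 190 did so in all 12. A further 11 did so in 11 pairs and 7 in fewer, the lowest in 9.

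**Figure D1:**
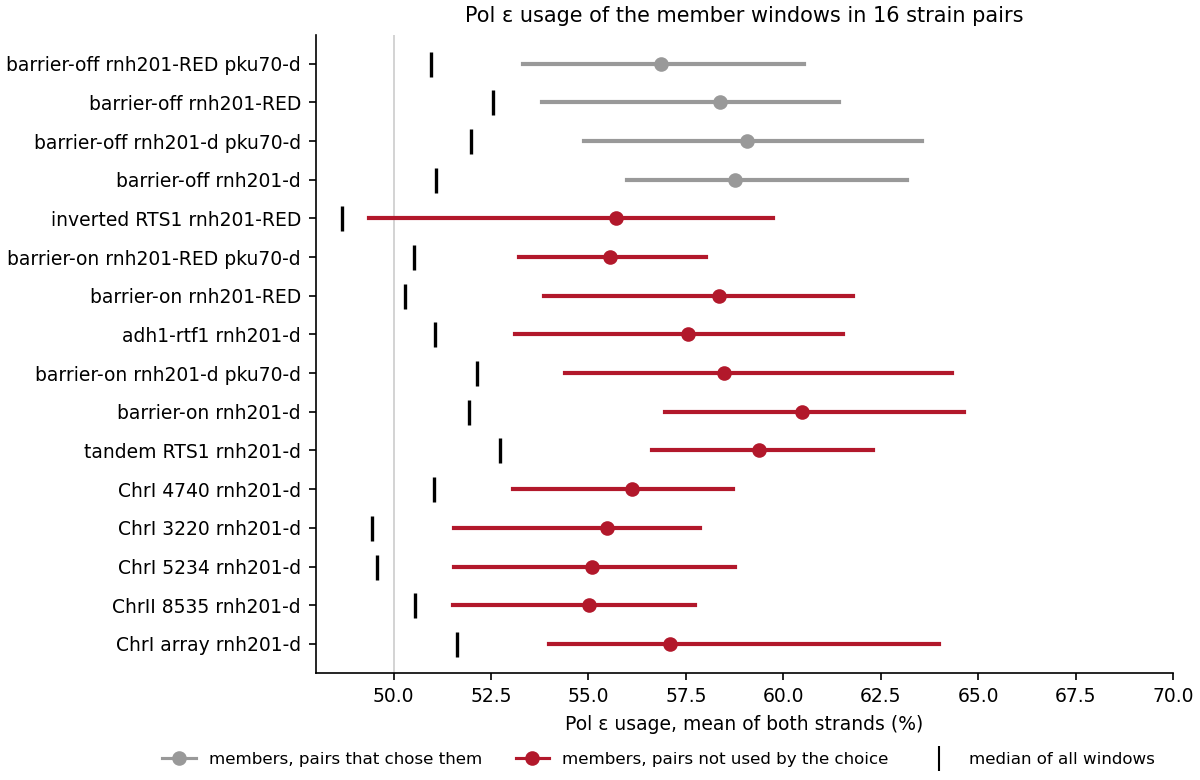
Pol ε usage of the 208 members in 16 strain pairs, in percent as the mean of both strands. Circles are the members' medians, lines run from their 5th to their 95th percentile, and black ticks are the medians of all 4170 windows. In every pair the members' median lies to the right of that of all windows, and in the 12 red pairs it runs from 55.0% to 60.5%.

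The counts of both strands were summed and Pol ε was tested against Pol δ over the 12 pairs with edgeR's quasi-likelihood test, the pair as a block and Benjamini-Hochberg adjustment at 0.05 over all windows. Of the 208 members, 198 (95.2%) were higher in Pol ε, whereas 37.6% of all windows were. None of the members was lower, against 34.8% of all windows, and the 10 remaining members were not called. In summed counts the strand with more counts weighs more, whereas usage weighs both strands alike. The larger strand count over the smaller had a median of 1.467 in the members not called. It was 1.288 in all members and 1.293 in all windows. The median log2 ratio of Pol ε over Pol δ was 0.34 for members (-0.07 to 0.84, median SE 0.045) and 0.01 for all windows. Leaving out each pair in turn gave between 195 and 199 members called higher, and between 1471 and 1580 of all 4170 windows. In every such fit 194 members were called, a count that was not made for all windows. The test rests on 12 different strains, not on repeats of 1 strain.

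Among the 5 members with the lowest adjusted p, chr2:3390001-3393000, with dph1 of diphthamide synthesis and the phosphate transporter gene plt1, had usage between 57.2% and 62.8% in the 12 pairs, with a median of 59.1%. Its log2 ratio was 0.46 ± 0.03 (SE, n = 12 pairs, adjusted p = 8.61e-08 by edgeR). chr1:624001-627000, with gga21 and part of spo15, lay between 56.4% and 63.2% with a median of 58.2% (log2 0.48 ± 0.03, adjusted p = 8.61e-08 by edgeR). In chr1:2547001-2550000, within myp2, a myosin II heavy chain of the contractile ring, usage lay between 54.7% and 62.4% (log2 0.49 ± 0.03). chr1:4701001-4704000 with the mannosyltransferase gene alg9 lay between 54.8% and 63.5% (log2 0.76 ± 0.05), and chr1:408001-411000 with cuf1, a copper-sensing transcription factor, between 54.4% and 61.1% (log2 0.58 ± 0.04). Both of the latter were higher on r and lower on f, with log2 ratios of 1.19 and -0.37 at alg9 and 1.28 and -0.50 at cuf1. Counts on f over those on r were 0.29 at alg9 and 0.56 at cuf1. The dph1 window was called higher on both strands. The gga21 window was called on f alone (log2 0.87, with 0.02 on r), and the myp2 window on r alone (0.78, with 0.08 on f). In these 5 windows all 12 pairs lay above 54% and thus above every pair's median of all windows.

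The members that were not called include 3 with the lowest usage in the 12 pairs. chr2:3339001-3342000, with dbp3, a DEAD-box helicase gene, had usage between 47.3% and 60.1%, a median of 53.0% and a log2 ratio of 0.03 ± 0.06 (adjusted p = 0.637 by edgeR). The Tf2-5 window chr1:3999001-4002000 lay between 48.7% and 57.8% with a median of 54.6% and a log2 ratio of -0.07 ± 0.06, and chr2:51001-54000 with grt1 between 44.5% and 60.6% with a median of 53.4% and 0.13 ± 0.08. Their values in the pairs straddle the medians of all windows.

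Counted by rank, 108 members (51.9%) were among the highest 5% of windows in at least 6 of the 12 other pairs, against 3.60% of all windows, which includes these members, and 42 windows outside the set. Of the members, 26 reached it in 10 or more pairs, 0 in all 12 and 7 in none. The number in the highest 5% of a single pair ran from 60 in the inverted pair to 120 in the barrier-on rnh201-RED pku70-d pair. The inverted pair was also the one whose usage correlated least with the chosen values across windows (r = 0.723, up to 0.906 in the other pairs).

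Tested strand by strand, 46 members (22.1%) were higher in Pol ε on f and on r separately, against 120 of all windows (2.88%). None was lower on both, against 2.06% of all windows. A further 86 members (41.3%) were higher on 1 strand and lower on the other, a state found in 81.5% of all windows, and 75 were higher on 1 strand with the other not called. The number called on both strands fell to 25 when the pair was left out of the design. The difference between f and r had a median size of 14.1 points in members and 32.1 points in all windows, and it was within 20 points in 68.3% of members and 32.5% of all windows. Usage was over 50% on both strands in 108 members (51.9%) and in 423 of all windows (10.1%). In single pairs the members over 50% on both strands were between 30.3% in the ChrI5234 pair and 65.9% in the barrier-on rnh201-d pair. Besides the members, 74 other windows were called higher on both strands, and their median value in the barrier-off pairs was 56.0%.

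**Figure D2:**
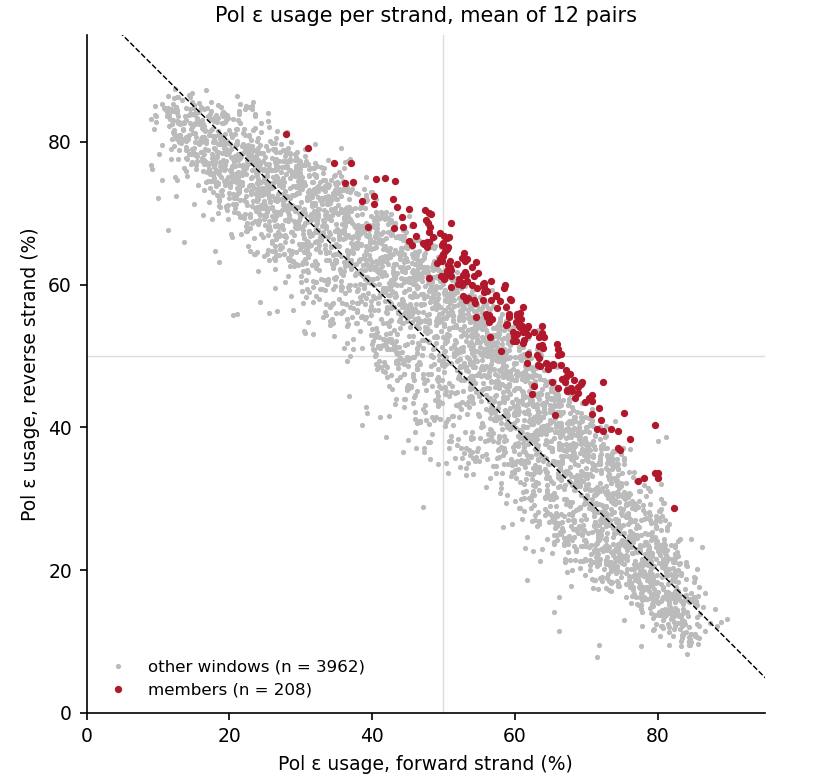
Pol ε usage on the forward strand against that on the reverse strand, in percent, for each 3-kb window as the mean of the 12 pairs not used in the choice. Red points are the 208 members, grey points the other 3962 windows, and the dashed line marks usages that add up to 100%. Members lie above the dashed line and most lie near its middle, where both strands exceed 50%.

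Across most members f minus r fell from left to right, the pattern of meeting forks. The change of f minus r from 3 windows to the left of a window to 3 windows to its right was measured over the 12 pairs, a quantity that the mean of both strands does not contain. It was negative in 168 of the 205 members with windows on both sides (82.0%) and in 55.6% of all windows, with medians of -36.1 and -7.19 points. A fall of over 20 points was present in 70.2% of members and 38.0% of all windows. The steepest 5% of rises, the sharpest origin-like transitions, were 209 windows and held 3 members, and 4 members (1.92%) lay within 6 kb of one, against 16.3% of all windows. The median distance to such a rise was 33 kb for members and 27 kb for all windows.

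Around the 168 members where f minus r fell, the high usage was broad. The mean of both strands was 57.1% in the member window, 55.4% and 55.3% at 6 kb to the left and right, and 52.3% and 52.7% at 30 kb. Over the same distance usage on f went from 68.5% at 12 kb to the left to 40.2% at 12 kb to the right. A different shape was seen at the 11 members where f minus r rose by over 40 points. There the mean was 56.9% in the member window and 49.8% and 50.6% in the windows next to it, so that the mean fell back to about 50% within 1 window. Of all windows, 851 rose by as much, and their median usage in the 12 pairs was 48.1%. The 11 members varied more between strains, with a median SD over the 12 pairs of 4.49 points, against 2.41 in the 168. In 5 of the 11, and 2 of the 168, the barrier-off rnh201-d pairs exceeded the rnh201-RED pairs by over 8 points. The mean of 56.9% is thus an average over strains that differ.

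**Figure D3:**
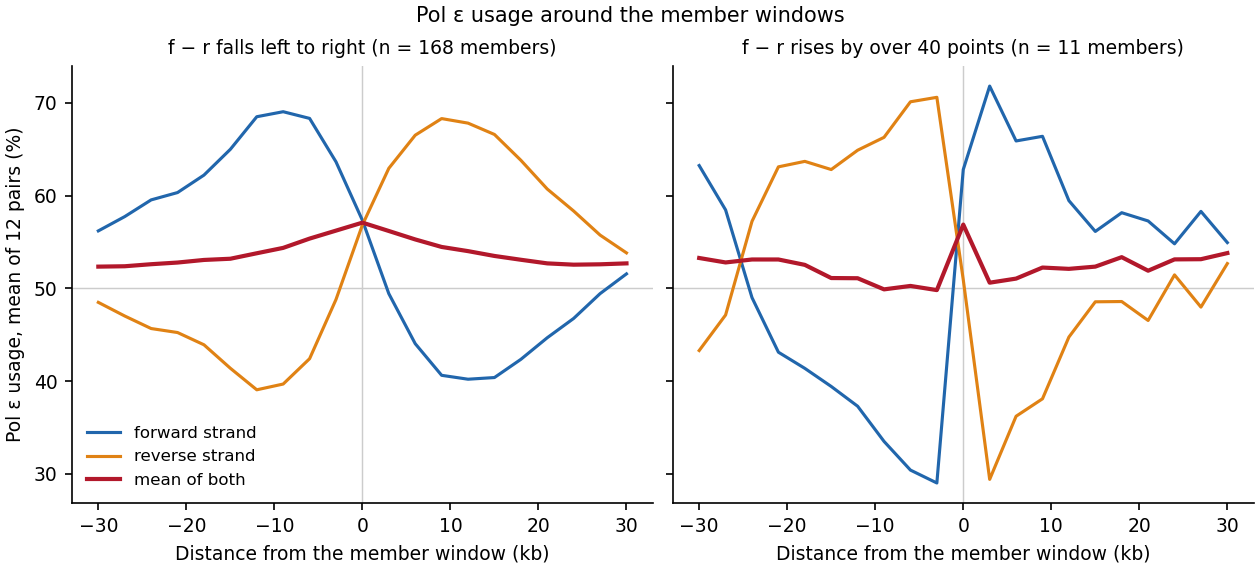
Mean Pol ε usage in percent on the forward strand, the reverse strand and both, against the distance in kb from the member window, over the 12 pairs not used in the choice. The left panel shows 168 members where f minus r falls and a broad excess centred at 57.1%, and the right panel 11 members where it rises by over 40 points and the excess is held in the central window at 56.9%. Usage in these 11 windows varied more between pairs than in the 168.

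Counts of each library were also compared with its own median window, which shows whether the usage was high through more Pol ε or less Pol δ. The members' median Pol δ level was below 1 in all 12 unused Pol δ libraries, from 0.831 to 0.950 (mean 0.882 ± 0.038, SD, n = 12 libraries). Their median Pol ε level was above 1 in all 12 Pol ε libraries, from 1.07 to 1.23 (mean 1.13 ± 0.049). Both shifts occurred in the same windows, since 148 members (71.2%) had a mean Pol δ level below 1 and a mean Pol ε level above 1, against 25.6% of all windows. In 25 members only Pol δ was below 1 without Pol ε above 1, and in 35 the reverse held. Pol α, which the choice did not use, lay near 1. Its median level was 1.01 in the barrier-on rnh201-RED library, 0.929 in the barrier-off rnh201-RED library, 1.015 in the barrier-off rnh201-d library and 1.001 in the barrier-on rnh201-d library. Between 0.8 and 1.2 lay 194 members (93.3%) and 87.9% of all windows. A level of counts combines copies of the window, ribonucleotides per copy and reads that can be placed, which these files do not tell apart. The members with a Pol δ or Pol α level above 1.5 were subtelomeric. Pol δ levels above 1.5 were present in 2 members, chr1:6001-9000 over the pseudogene SPAC212.10 and chr2:36001-39000. At chr1:6001-9000 the mean levels were 2.06 for Pol δ, 2.35 for Pol ε and 1.997 for Pol α. The other member with a Pol α level above 1.5 was chr2:4521001-4524000 over the pseudogene SPBCPT2R1.06C, at 1.54.

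**Figure D4:**
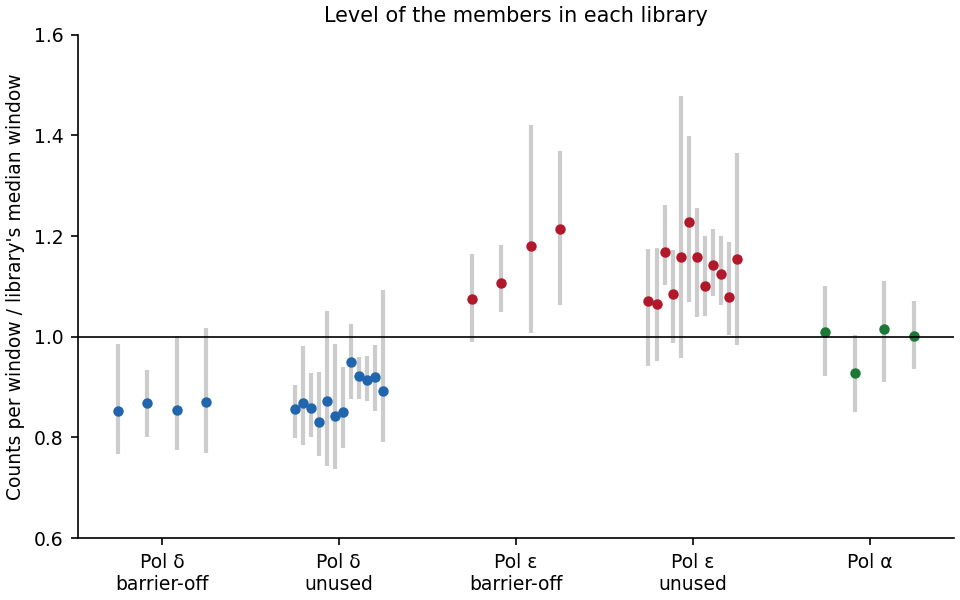
Level of the 208 members in each library, as counts per window over the library's median window. Points are medians over members and bars run from the lower to the upper quartile. All Pol δ medians lie below 1, all Pol ε medians above 1 and the 4 Pol α medians between 0.929 and 1.015.

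The members were unevenly spread over the chromosomes. Chromosome 1 held 112 of 1859 windows (6.03%), chromosome 2 held 93 of 1494 (6.22%) and chromosome 3 held 3 of 817 (0.367%). The 3 were chr3:1407001-1410000 at the histone H2A gene hta1, chr3:2310001-2313000 at SPCC965.13 and chr3:1221001-1224000 at rei1. The median usage over all windows of chromosome 3 was 48.01% in the 12 pairs, against 51.5% and 51.6% on the others, and the median Pol δ level there was 1.09. Whether this reflects the chromosome's replication or its share of the counts was not tested. Coordinates on chromosome 2 beyond the construct and on chromosome 3 are as deposited, on genomes that carry the inserts.

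Chromosome ends held many members and centromeres held none. Of 203 windows within 100 kb of an end, 25 were members (12.3%), which is 12.02% of the members against 4.87% of all windows. All 25 lay on chromosomes 1 and 2, with 5 at each end of chromosome 1, 9 at the left end of chromosome 2 and 6 at its right end. Median usage of the end windows in the 12 pairs was 53.1% to 54.7% at these 4 ends and 46.6% and 47.4% at the ends of chromosome 3, where the rDNA arrays lie. Within 50 kb of a centromere 0 of 102 windows were members, with a median usage of 45.6%. Members were also counted by annotation. They included 10 of 239 windows with a long terminal repeat (4.18%), 2 of 30 with a Tf2 retrotransposon, 3 of 135 with a tRNA gene (2.22%), 1 of 10 with a histone gene and 33 of 428 with a gene over 5 kb (7.71%), beside 5% of all windows. None of the 35 windows with a wtf gene, of which 33 lie on chromosome 3, was a member, and none of the 47 with an rRNA gene, of the 13 in the mating-type region or of the 5 with a tlh gene, a telomere-linked helicase. Protein-coding genes were present in 202 members (97.1%) and 97.4% of all windows.

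Adjacent members formed runs. The 208 members fell into 124 runs, of which 76 were single windows, and 132 members (63.5%) lay in runs of at least 2. The longest run held 9 windows of chromosome 1, and its genes include sdo1 of ribosome maturation, pct1, dut1, the mitotic kinase gene cdr1, bcs1, med11 and pkp1. Its mean usage in the 12 pairs was 57.9%, and its single windows lay between 56.6% and 58.6%. In it 3 of the 9 windows were called on both strands. Of the runs of 5 windows, one lay just 3 kb to the left, chr1:2655001-2670000, with the splicing factor gene spp42, sea2 and the hexokinase gene hxk2 and a mean of 57.9%. Together they left a single window that was not a member in this stretch. The other run of 5, chr1:294001-309000, with the corepressor gene tup11, pat10, rhp6, which encodes the ubiquitin-conjugating enzyme of post-replication repair, and lcp5, had a mean of 56.6%, f minus r from 45.9 to -27.4 points and 0 windows called on both strands.

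Of the 10 highest members in the barrier-off pairs, 9 were higher in Pol ε by edgeR in the 12 other pairs. The third, chr1:627001-630000, lies within spo15, a gene of a spindle pole body protein. Its usage was 58.8% and 59.2% in the barrier-off rnh201-RED pairs and 63.3% and 64.2% in the rnh201-d pairs, each with and without pku70 in turn, and it ran from 54.1% to 64.4% with a median of 60.2% in the 12 others. All of these values exceed the medians of all windows. Its log2 ratio was 0.57 ± 0.05 (SE, n = 12 pairs, adjusted p = 9.48e-07 by edgeR), carried by r with 1.06 while f gave -0.02. chr1:9001-12000 over the pseudogene SPAC212.09C ran from 52.3% to 65.9% (log2 0.52 ± 0.07), and chr1:4350001-4353000, with the nucleoporin gene nup146 and the proteasome gene pup1, from 52.3% to 66.3% (log2 0.47 ± 0.06). The SPAC212.09C window was higher on r and lower on f, with log2 ratios of 1.16 and -0.20. The nup146 window was higher on f with 0.74, while r, with 0.17, was not called. In chr1:5514001-5517000 over the urea transporter gene SPAC869.03C usage ran from 47.7% in the inverted pair to 64.0% (log2 0.40 ± 0.06), with both strands called. chr2:3021001-3024000 with gpt2 and zng1 ran from 55.1% to 63.6%, and its log2 ratio of 0.69 ± 0.06 came with a higher value on r and a lower one on f. chr1:2139001-2142000, with the DNA repair kinase gene pnk1 and ipp1, had 54.5% to 65.1% and a log2 ratio of 0.74 ± 0.07. It lay at a rise of f minus r by 77.2 points, with f at 79.6% and r at 40.3%. chr2:3576001-3579000 with SPBC887.16 and SPBC887.17 ran from 54.8% to 63.5%, and chr1:2691001-2694000 with med11, pkp1 and a long terminal repeat from 54.3% to 63.1%, and each was called on both strands. At the next rank, chr2:2577001-2580000 with a tRNA-Phe gene ran from 54.0% to 62.9% and was called on both strands.

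The highest member of all was the one that did not pass. chr2:36001-39000, with ght7, a hexose transporter gene, had 62.2% and 66.3% in the barrier-off rnh201-RED pairs and 62.5% and 59.6% in the rnh201-d pairs. In the 12 others it had 31.2% in the inverted pair, 43.5% in the ChrI4740 pair, 46.6% in the ChrI5234 pair and between 54.2% and 66.4% in the remaining 9, with a median of 59.5% and the largest SD of any member, 10.5 points. Its log2 ratio was 0.26 ± 0.16 (adjusted p = 0.161 by edgeR), and 0.37 without the inverted pair (adjusted p = 0.0133). Mean levels there were 1.93 for Pol δ, 2.20 for Pol ε and 1.18 for Pol α, so that more counts than usual were placed in it. The next window, chr2:39001-42000, also over ght7, had a Pol δ level of 0.929 and was called.

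**Figure D5:**
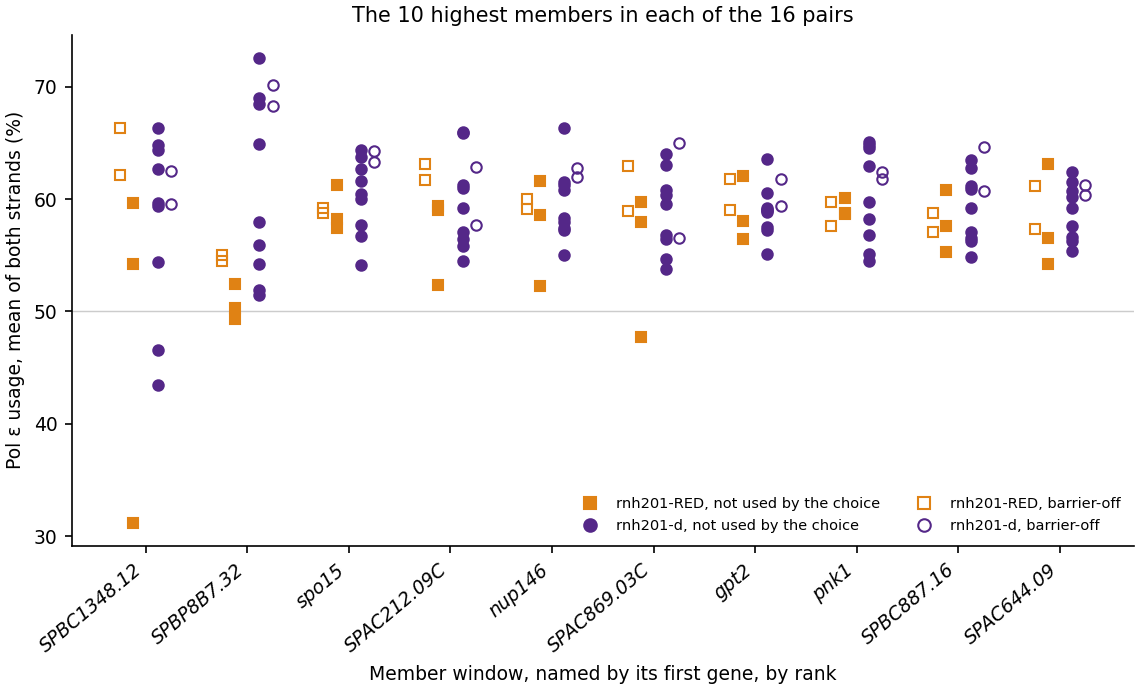
Pol ε usage in percent of the 10 highest members, by rank from left to right and named by a gene, in each of the 16 pairs. Squares are rnh201-RED and circles rnh201-d pairs, and open symbols are the barrier-off pairs that chose the windows. Most filled symbols lie between 54% and 66%, apart from the first window, which reaches 31.2%, and the second, whose filled circles run from 51.5% to 72.6%.

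By rnh201 allele, the members' median usage was 56.6% in the unused rnh201-RED pairs and 57.2% in the unused rnh201-d pairs, where all windows had 49.8% and 51.1%. The interaction of polymerase with the allele over the 12 pairs (3 rnh201-RED and 9 rnh201-d) was called in 0 members and in 0% of all windows by edgeR. At an unadjusted p under 0.05 it was found in 21 members (10.1%) and in 21.7% of all windows, and DESeq2 called 4 members and 5.73% of all windows. The interaction with pku70 was called in 0 members and 0% of all windows by edgeR. At an unadjusted p under 0.05 it was found in 4 members (1.92%) and 6.12% of all windows. DESeq2 called 0 members, which stands without its share over all windows and is no result about the members. The pku70 test rests on 2 pairs without the gene.

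A few members, picked after their values were seen, differed widely between strains. In 10 of the 208 members, and in 38 of all 4170 windows, the barrier-off rnh201-d pairs exceeded the rnh201-RED pairs by over 8 points. The reverse held in 0 members and 47 of all windows. These counts are a description from the values that chose the members. The second highest member, chr2:3636001-3639000 with pop7, an RNase P subunit gene, and rng9, had 54.5% and 55.0% in the barrier-off rnh201-RED pairs and 68.3% and 70.2% in the rnh201-d pairs. In the unused rnh201-RED pairs it had 49.3%, 52.4% and 50.3%. Among the unused rnh201-d pairs, usage was 72.6% in the barrier-on pair, 69.0% in the barrier-on pku70-d pair, 68.5% in the ChrI array pair and 64.9% in the tandem pair, but 58.0%, 55.9%, 54.3%, 51.9% and 51.5% in the ChrI4740, ChrII8535, adh1-rtf1, ChrI3220 and ChrI5234 pairs. Of the 5 low values, 58.0% and 55.9% lay above every rnh201-RED value. The values 54.3%, 51.9% and 51.5% lay within the range of all rnh201-RED pairs, 49.3% to 55.0%. At the hta1 window chr3:1407001-1410000 the same 4 pairs gave 71.5%, 70.2%, 70.9% and 66.2%, and the other unused rnh201-d pairs 49.99% to 58.2%. The unused rnh201-RED pairs gave 42.5%, 49.7% and 51.3% there. In the barrier-off pairs rnh201-RED gave 55.85% and 42.46%, and rnh201-d gave 66.86% and 70.92%. At chr2:2940001-2943000 with ubp9, a ubiquitin hydrolase gene, the same 4 pairs gave 68.5%, 67.1%, 70.4% and 61.0%. The other unused rnh201-d pairs gave 51.6% to 59.0% and the unused rnh201-RED pairs 51.3% to 54.8%. In the barrier-off pairs rnh201-RED gave 58.45% and 42.46%, and rnh201-d gave 68.36% and 67.27%. The rnh201-RED values of both windows thus spread widely and overlap the lower rnh201-d values. The pop7, hta1 and ubp9 windows had the widest allele differences of the 10, and not all of the 10 showed this split. In the ste11 window, from chr2:3984001, the ChrI array pair had 55.9%, below the inverted rnh201-RED pair at 59.9%. In the window from chr2:27001 the ChrI4740 pair had 60.4% and the ChrI array pair 59.8%. The interaction at the hta1 window had a log2 of -0.84 (rnh201-RED minus rnh201-d, adjusted p = 0.188 by edgeR), and that at the pop7 window -0.63 (adjusted p = 0.196). Neither is past the threshold by edgeR, and the hta1 window is one of the 4 members called by DESeq2 (log2 -0.83, adjusted p = 0.0389). The other members called by DESeq2 went the opposite way, with the Pol ε excess larger in rnh201-RED. Their log2 was 0.33 from chr1:2370001, 0.40 from chr1:5304001 and 0.33 from chr1:300001. Which feature of the rnh201-d strains goes with the higher values was not tested.

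The nearest member to an insertion site on chromosome 1 began about 24 to 29 kb away at the 3 sites, and that to the chromosome 2 construct 48 kb away, outside the 840 to 900 kb stretch that was not considered. The barrier-on pairs gave the members a median usage of 58.3%, against 58.1% in the barrier-off pairs that chose them.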

How the data were processed

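Pu-seq was analysed in 36 libraries with 72 files, 1 per strand. The authors cleaved genomic DNA with alkali, selected fragments by size, aligned reads with Bowtie2 and turned the alignments into counts per 300-bp bin by a Perl script, and deposited the counts as they were, with no scaling. The build is not given in the sources used here. Chromosome lengths fit ASM294v3 with the inserts added, and other genomes were placed on the barrier-off genome by matching count profiles in steps of bins. Gene names and sequence are from the RefSeq annotation of ASM294v3.

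Counts were summed per strand in windows of 10 bins, and usage was computed after division by library totals. The members and all lists were chosen with earlier results of these data known. Differences were tested by edgeR (version 4.0.16, under R 4.3.3) after TMM scaling, with the pair as a block and Benjamini-Hochberg adjustment at 0.05 over all windows, and DESeq2 1.42.0 as an alternative. The pair is part of the design because usage is defined within a pair of strains that share a background. On simulated counts of 4170 windows with 200 changed 1.5-fold, the polymerase test recovered 200 with 10 false calls and the allele test 136 with 4. The simulated windows had no differences between strains and few of them were changed. These counts therefore check the code and do not measure false calls in the data. Leave-one-out fits, other scalings, filters, thresholds and window starts were tried. The windows named are the 10 highest members, 3 on each side of the threshold, the 3 longest runs, the 5 with the lowest adjusted p and the 3 with the lowest usage in the unused pairs, the highest of each annotation class, and a few named after their values were seen (windows with high levels, the members of chromosome 3 and those that differed by allele). Usage, levels and counts came from Python 3.11.15 (pandas 2.3.3, numpy 2.4.6, scipy 1.17.1), and matplotlib 3.10.9 drew the plots. Listed genotypes that conflict with titles were not resolved from the labels. For the inverted pair, usage by its titles correlated with the chosen values at r = 0.723, and exchanging its 2 polymerases would reverse that sign. No library was left out. For most member windows the individual values are left out of the text.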

Additional observations from a re-analysis of the deposited data

Results flagged for a closer look

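In groups of 4, a value far from the other 3 was looked for in 135 groups (barrier-off pairs, barrier-on pairs and Pol α libraries of 44 named windows, and 3 medians), and 4 were found, where chance gives about 6.8. At chr1:9001-12000 usage was 65.9% in the barrier-on rnh201-d pair and at most 59.4% in the other barrier-on pairs. At chr1:300001-303000 over tup11 it was 53.6% in the barrier-off rnh201-RED pku70-d pair and at least 58.7% in the others. At chr1:2664001-2667000 with mug114 and hxk2 the same pair had 53.5%, with at least 58.2% in the others. The members' median Pol α level was 0.929 in the barrier-off rnh201-RED library and at least 1.001 in the other 3.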

How the results depend on the processing

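Of 59 alternatives to the summary values, 51 moved a value by less than its SD or kept a count within 1.5 times. The SD was that between pairs or libraries of different strains, and for GC content that between member windows. Without a block for the pair, 190 members (31.8% of all windows) were called higher and 25 on both strands (1.10%). Without TMM the counts were 204 (46.4%) and 64. The 64 stands without its share over all windows, so it is no result about the members. Over all windows, higher calls with strands summed went from 1566 to 1935, and their share among all calls from 51.9% to 63.6%. DESeq2 called 4 members for the allele. With the highest 10% in place of 5%, 180 members recurred in at least 6 pairs, against 8.54% of all windows. Scaled by the median bin, the members' levels were 1.202 for Pol ε, 0.939 for Pol δ and 1.03 for Pol α, where all windows had 1.07, 1.07 and 1.04. With members taken as the highest 2.5% or 10%, 11 of 104 and 40 of 417 lay within 100 kb of an end. Leaving out each of the 12 pairs gave 195 to 199 members called higher, beside 1471 to 1580 of all 4170 windows. The members' median usage was then 56.6% to 57.2%. Leaving out a barrier-off pair kept 157 to 173 members, and windows started 1500 bp later matched 160. The direction reversed at chr2:3339001-3342000 without the barrier-on rnh201-d pku70-d pair (log2 from -0.0042 to 0.0653 over the 12 such fits) and at chr1:3999001-4002000 without TMM (0.0144), both uncalled. The hta1 window lost its call in 4 of the leave-one-out fits (adjusted p up to 0.0604). No depth minimum removed a window, and the lowest strand count of a window was 43.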
